A study of Rattus norvegicus with 9 samples.

Results

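The miR-101 family is described here across 9 small RNA libraries from the hippocampus of Sprague-Dawley rats. Its members are all rows of the deposited table named miR-101a or miR-101b, with any arm ending, and 4 of the 633 listed miRNAs met that rule: rno-miR-101a-3p, rno-miR-101b-3p, rno-miR-101a-5p and rno-miR-101b-5p, written without the species prefix from here on. The first 3 had enough counts to be tested among 469 miRNAs, and miR-101b-5p did not. Rats of the VEH group received saline throughout. Rats of the MK-801 group received 0.2 mg/kg a day of MK-801 (dizocilpine), a blocker of NMDA-type glutamate receptors used to model schizophrenia, for 14 days and then saline for 7 days. Rats of the MK-801+CLO group had the same 14 days of MK-801 and then 10 mg/kg of clozapine (CLO), an atypical antipsychotic, for 7 days. The protocol gives that last dose without naming the drug, which the group's name supplies. MK-801 was injected intraperitoneally, and each group holds 3 libraries and, per the labels, 10 rats. The labels give the age as post natal day 21, while their protocol text has treatment begin at 5 weeks after 14 days of habituation. How many rats went into a library is not stated, so the spread between libraries may be technical.

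A microRNA is cut from a hairpin precursor, and 1 of its arms, the guide, is loaded into an Argonaute protein and pairs through its seed with messenger RNAs, which are then repressed. The miR-101 guide is the 3p arm. It is known for repressing Ezh2, the histone methyltransferase of the Polycomb complex PRC2, and App, the amyloid precursor protein, and in the developing hippocampus it restrains network excitability, in part through the chloride transporter NKCC1 (Slc12a2). These target transcripts were not measured in small RNA libraries.

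The mature sequences are shown first because 2 of them differ so little that reads could be assigned to either. They are given 5′ to 3′ from RefSeq (GRCr8 table), which held all 4 names and matched the deposited sequences, with the seed, bases 2 to 8, in capitals.
miR-101a-3p: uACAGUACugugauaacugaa
miR-101b-3p: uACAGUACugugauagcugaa
miR-101a-5p: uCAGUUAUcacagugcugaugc
miR-101b-5p: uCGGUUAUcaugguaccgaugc
Both 3p arms carry the same seed, and no other miRNA of the table has it. Counting from 1 at the 5′ end of miR-101a-3p, the only difference between the 3p arms is A16G, outside the seed. The 5p arms differ at 5 positions, of which A3G lies in the seed, so the 5p arms have different seeds.

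The hairpins come from different chromosomes and are shown because they tie each 3p arm to its 5p partner, with the mature arms in capitals.
Mir101a: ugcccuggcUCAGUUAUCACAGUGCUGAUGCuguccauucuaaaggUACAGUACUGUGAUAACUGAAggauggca
Mir101-2: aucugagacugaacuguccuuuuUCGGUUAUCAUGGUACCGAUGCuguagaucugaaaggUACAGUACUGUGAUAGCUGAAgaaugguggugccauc
The RefSeq annotation places Mir101-2, the source of miR-101b, inside the protein-coding gene Rcl1, with Ak3 and Jak2 among its named neighbours. Mir101a overlaps a long noncoding RNA and lies between Jak1 and Ak4. Each hairpin thus sits near a Janus kinase gene and an adenylate kinase gene. No coordinates are given, because the deposited table rests on build Rnor_6.0.

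Library totals ran from 10665718 to 18284905 counts. Levels are given as scaled CPM (CPM with library sizes adjusted by TMM factors), and group values as mean ± SD (n = 3). All 6 neuronal marker miRNAs, miR-9a-5p and miR-124-3p among them, were detected in all 9 libraries. VEH replicate 3 stood apart in its choroid plexus and ependymal markers, which summed to 12394 CPM there against 3984 and 5799.7 CPM in the other VEH libraries, so values without it are given where they apply.

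MiR-101a-3p was the most abundant member, at rank 90 of the 633 miRNAs by mean CPM. It lay at 496, 497 and 464 scaled CPM in VEH replicates 1, 2 and 3, at 679, 595 and 578 in the MK-801 replicates, and at 619, 534 and 619.7 in the MK-801+CLO replicates. Every library of both treated groups was above every VEH library, while the treated groups overlapped each other. The means were 486 ± 18.6 in VEH, 617 ± 54.4 in MK-801 and 591 ± 49.2 in MK-801+CLO (SD, n = 3).

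MiR-101b-3p, with the same seed, ranked 149. Its scaled CPM was 143, 163 and 156 in VEH, 202, 188 and 174 in MK-801, and 187, 168 and 200.1 in MK-801+CLO, in order of replicate number. The order of group means was the same as for miR-101a-3p, at 188 ± 13.9 in MK-801, 185 ± 16.1 in MK-801+CLO and 154 ± 10.1 in VEH. The lowest treated library, MK-801+CLO replicate 2, was only 4.65 scaled CPM above the highest VEH library.

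MiR-101a-5p, the other arm of the miR-101a hairpin, ranked 279. It lay at 17.4, 16.9 and 17.9 scaled CPM in VEH, at 21.8, 21.3 and 16.9 in MK-801, and at 25.6, 21.1 and 24.7 in MK-801+CLO. Here the highest mean was that of MK-801+CLO, at 23.8 ± 2.37, followed by MK-801 at 20.0 ± 2.70 and VEH at 17.4 ± 0.499. MK-801 replicate 3 was level with the lowest VEH library, so those groups overlapped, while no MK-801+CLO library reached down to VEH.

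MiR-101b-5p was nearly absent. It had 4 counts in VEH replicate 1 and 0 in the other 8 libraries, where the upper limit set by 3 counts is 0.164 to 0.281 CPM, depending on depth. The other arm of the same hairpin, miR-101b-3p, had 22948 counts in all. No fold is given for miR-101b-5p.

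Counting error was small for the 3p arms. The 95% Wilson interval of a single library spanned 1.90% to 2.64% of the value on either side for miR-101a-3p and 3.38% to 4.71% for miR-101b-3p, against 10.0% to 13.7% for miR-101a-5p with its 205 to 382 counts per library. These intervals cover counting error only.

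**Figure D1:**
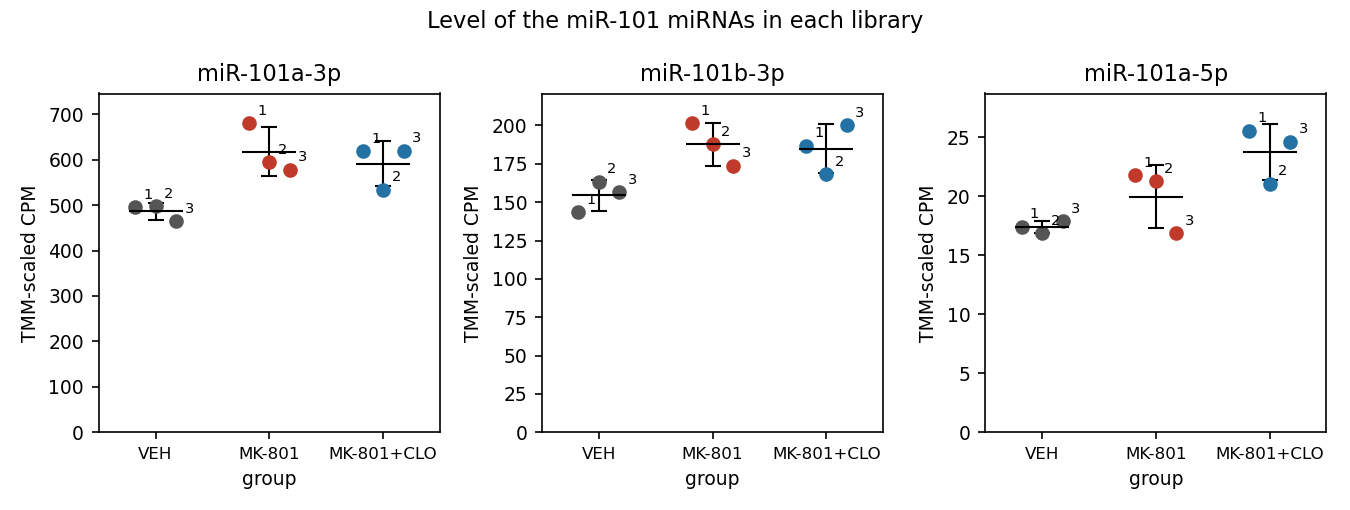
Level of the 3 tested members in each library, in TMM-scaled CPM, by group, with linear axes that start at 0. Each coloured point is 1 library with its replicate number beside it, with the group mean ± SD (n = 3) in black; all treated libraries lie above the VEH libraries for both 3p arms, and MK-801 replicate 3 lies at VEH level for miR-101a-5p.

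Setting MK-801 beside VEH addresses the first stated aim, the miRNA profile of the rat model. The family was selected on measured values of these libraries, those of this comparison among them, so its values here are a description with no test. The log2 fold change was 0.35 ± 0.10 (SE) for miR-101a-3p, or 1.27-fold, 0.28 ± 0.11 for miR-101b-3p, or 1.21-fold, and 0.20 ± 0.13 for miR-101a-5p, or 1.15-fold. The median over all 469 miRNAs was -0.02, and 46.5% of them lay above 0, as did all 3 members. By size of the fold from the highest down, these were ranks 37, 43 and 71 of 469. Groups did not overlap for 2 of 3 members, both 3p arms, where 5.97% of all tested miRNAs lay higher in MK-801 without overlap. In edgeR 0 of 469 miRNAs (0%) passed an adjusted p of 0.05, with 24 (5.12%) at an unadjusted p under 0.05. DESeq2 called 1 and limma voom 0.

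With each library left out in turn, miR-101a-3p ranged from 0.27 to 0.40 and miR-101b-3p from 0.21 to 0.34, a description that the choice of the family also bears on. Without VEH replicate 3 they were 0.31 and 0.29. MiR-101a-5p moved more, to 0.31 without MK-801 replicate 3 and to 0.13 without MK-801 replicate 1.

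The second stated aim, the effect of clozapine, is addressed by MK-801+CLO beside MK-801 alone. The family was chosen with values of the same MK-801 libraries in view, which bears on the p-values, intervals and overlaps given here. No member passed the test in edgeR. MiR-101a-3p had a log2 fold change of -0.06 ± 0.10 (95% interval -0.29 to 0.17, adjusted p = 0.859) and miR-101b-3p of -0.02 ± 0.11 (95% interval -0.26 to 0.22, adjusted p = 0.965). The intervals leave room for a change of either sign, and both values turned above 0 without MK-801 replicate 1 (0.02 and 0.04) and without MK-801+CLO replicate 2 (0.00 and 0.04). MiR-101a-5p was on the other side, at 0.25 ± 0.13 (95% interval -0.04 to 0.54, edgeR adjusted p = 0.623). It was 0.14 without MK-801 replicate 3, the library at VEH level, and 0.14 with upper-quartile scaling. For 0 of 3 members did the groups separate upward, where 7.04% of all tested miRNAs did so. Of the members only miR-101a-5p lay above 0, as did 48.8% of all miRNAs. Over all miRNAs 0 of 469 (0%) passed in edgeR, 39 (8.32%) had an unadjusted p under 0.05, DESeq2 called 2 and limma voom 0. From the highest fold down, miR-101a-5p ranked 65, miR-101b-3p 253 and miR-101a-3p 289 of 469.

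Relative to VEH, MK-801+CLO shows the levels after both courses. This comparison shares its VEH libraries with the first comparison and its clozapine libraries with the second, so it adds no separate control. The family was chosen with values of the same VEH libraries in view, which bears on the p-values and overlaps given here, and they are no independent support. All 3 members lay above VEH, as did 50.1% of all miRNAs, without passing the adjusted threshold. MiR-101a-5p had the largest value of the 3, a log2 fold change of 0.45 ± 0.13 (95% interval 0.16 to 0.74), or 1.37-fold, with an unadjusted p of 0.00652 and an adjusted p of 0.180 in edgeR. MiR-101a-3p was at 0.28 ± 0.10 (95% interval 0.05 to 0.51, edgeR adjusted p = 0.254) and miR-101b-3p at 0.26 ± 0.11 (95% interval 0.02 to 0.50, edgeR adjusted p = 0.288). By fold they ranked 21, 66 and 75 of 469.

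In that comparison the groups did not overlap for 3 of 3 members, where 9.38% of all tested miRNAs lay higher without overlap. With CPM by library total it was 2 of 3, against 5.97%, because miR-101b-3p then overlapped. The 3 rows are not independent, since 2 come from 1 hairpin and the 3p arms could exchange reads. In edgeR 0 of 469 miRNAs (0%) passed the adjusted threshold, with 70 (14.9%) at an unadjusted p under 0.05, while DESeq2 called 11 and limma voom 0. In DESeq2 the members had adjusted p-values of 0.0570 (miR-101a-5p), 0.0630 (miR-101a-3p) and 0.152 (miR-101b-3p). Without VEH replicate 3 the log2 fold changes were 0.47, 0.25 and 0.27 in the same order.

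**Figure D2:**
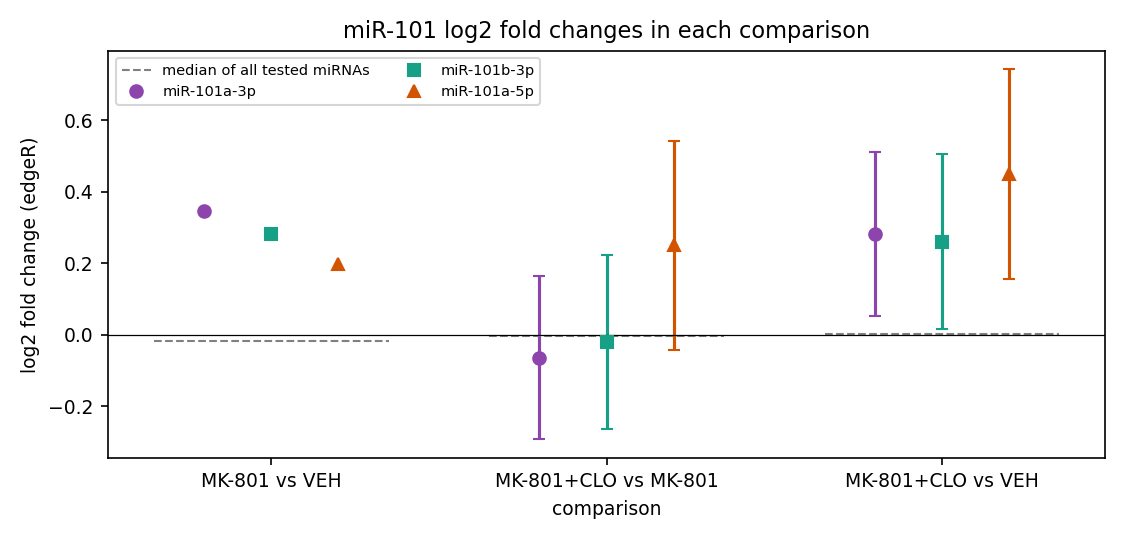
Log2 fold change of the 3 tested members in each comparison (edgeR, all 9 libraries), with 95% intervals as bars except for MK-801 against VEH, whose values bore on the choice of the family, and the median of all 469 tested miRNAs as a dashed line. Both 3p arms lie above 0 against VEH in both treated groups and near 0 between the treated groups, while miR-101a-5p lies above 0 in all 3 comparisons.

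**Figure D3:**
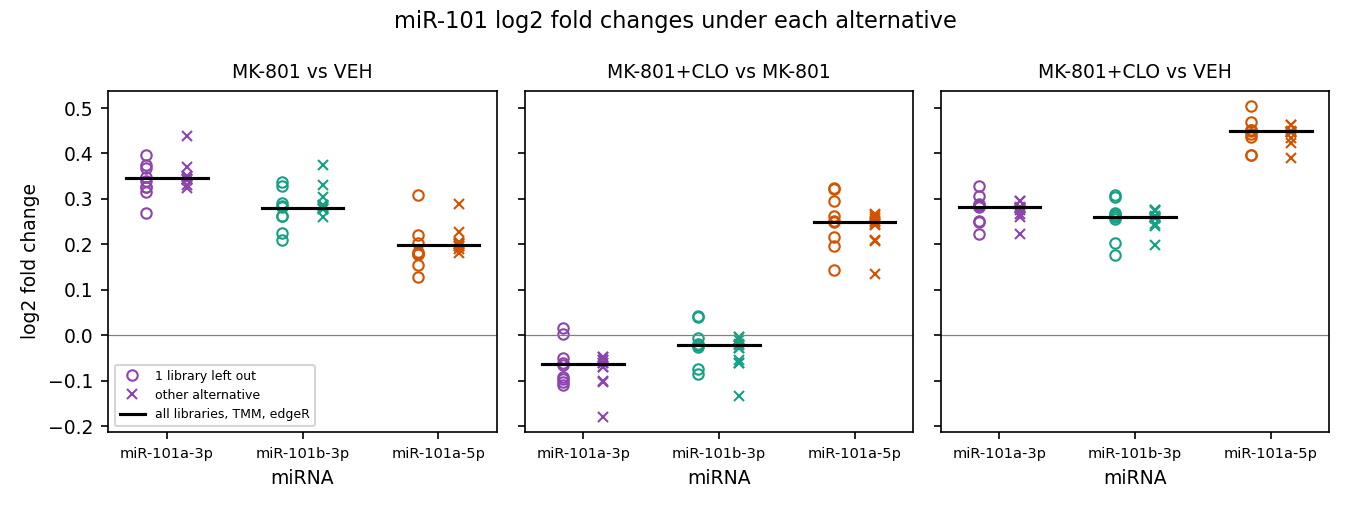
Log2 fold change of the 3 tested members under each alternative, by comparison: open circles leave out 1 library, crosses change the scaling, filter, test or design, and black lines are the values with all libraries, TMM scaling and edgeR. All values against VEH stay above 0, and between MK-801+CLO and MK-801 the 3p arms lie below 0 in all but 2 of 20 alternatives each, both with 1 library left out.

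Of the marker sums of other cell types, only that of vessels separated the clozapine group from both other groups, a description with no test. All 4 vascular markers, such as miR-143-3p and miR-126a-3p, were detected in every library and summed to 25681 to 30246 CPM in MK-801+CLO, against 21837 to 25137 CPM in VEH and 22712 to 24162 CPM in MK-801, with no overlap. The 7 choroid plexus and ependymal markers, such as miR-204-5p and miR-34c-5p, were also all detected. Their sum lay at 2562 to 3855 CPM in MK-801+CLO, below the 3984 to 12394 CPM of VEH, and at 3647 to 4495 CPM in MK-801. The 5 microglial and leukocyte markers summed to 853 to 1076 CPM in MK-801+CLO, 765 to 889 CPM in VEH and 761 to 795 CPM in MK-801, which separates the clozapine group from MK-801 only. The part of these markers in the miR-101 values was not tested. No marker sum separated MK-801 from VEH.

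The other marker sums overlapped between all groups. The 6 neuronal markers summed to 129133 to 135349 CPM in VEH, 127983 to 149861 CPM in MK-801 and 121882 to 141125 CPM in MK-801+CLO. A sum can hide moves of single markers, and miR-9a-5p made up most of the neuronal sum in each group. MiR-138-5p lay at 21524 ± 478 scaled CPM in VEH and 32261 ± 8490 in MK-801, and miR-128-3p at 16560 ± 1566 and 15315 ± 838. Those of 3 oligodendrocyte markers lay at 3686 to 4909.9 CPM in VEH, 3811 to 6184 CPM in MK-801 and 3738 to 5925 CPM in MK-801+CLO. The 4 red blood cell markers lay at 3071 to 3563 CPM in VEH, 2709.9 to 3091 CPM in MK-801 and 2973 to 3268 CPM in MK-801+CLO. In dissected tissue, a change in the share of a cell type and a change per cell cannot be told apart.

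Ratios within a library do not depend on how libraries are scaled. They are ratios of counts and not of molecules, since library preparation is known to favour some sequences. MiR-101a-3p had 3.46, 3.04 and 2.97 times the counts of miR-101b-3p in VEH, 3.37, 3.17 and 3.33 times in MK-801, and 3.31, 3.18 and 3.10 times in MK-801+CLO. The ratio varied most within VEH and overlapped between all groups, at means of 3.16 ± 0.264, 3.29 ± 0.105 and 3.20 ± 0.109 (SD, n = 3). An exact two-sided permutation test gave p = 0.3 between the treated groups and p = 0.7 between MK-801+CLO and VEH. With 3 libraries against 3 the smallest p that test allows is 0.1. The choice of the family on values of these libraries bears on the ratio tests here and below. Of the joint counts of both 3p arms, miR-101b-3p took 22.4% to 25.2% in the 9 libraries. Both extremes were VEH libraries, with 95% Wilson intervals of the ratio of 3.30 to 3.62 in replicate 1 and 2.85 to 3.10 in replicate 3. The hairpins lie on different chromosomes, but reads of these arms could be assigned to either. Merging both arms into 1 row gave log2 fold changes of 0.33 and 0.28 for MK-801 and MK-801+CLO relative to VEH, and -0.05 between the treated groups. These are close to those of miR-101a-3p, which largely follows from the merging, since miR-101a-3p supplied most of the merged counts.

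In counts, the 5p arm of the miR-101a hairpin took its largest shares in the 3 MK-801+CLO libraries, though no test of this passed. Reads of the 3p arms could be assigned to either, which bears on the counts of miR-101a-3p here too. MiR-101a-3p had 28.4, 29.4 and 25.9 times the counts of miR-101a-5p in VEH, 31.1, 28.0 and 34.2 times in MK-801, and 24.2, 25.3 and 25.1 times in MK-801+CLO. All 3 MK-801+CLO libraries were below every other library, at 24.9 ± 0.603 against 27.9 ± 1.79 in VEH and 31.1 ± 3.13 in MK-801. The 5p arm made up 3.80% to 3.97% of the hairpin's counts with clozapine, 3.29% to 3.71% in VEH and 2.84% to 3.45% in MK-801. Exact permutation tests gave p = 0.1 against each group, the smallest value possible, and 0.2 after Benjamini-Hochberg adjustment over the 4 ratio tests, so neither passed. Among 153 hairpins with both arms tested, the lesser arm gained without overlap in 4.58% when MK-801+CLO is set against MK-801 and in 8.5% against VEH. Counting error is not small here: the 95% Wilson interval of the ratio ran from 23.3 to 28.9 in VEH replicate 3 and from 22.1 to 29.0 in MK-801+CLO replicate 2. Over all libraries the miR-101a ratio, 27.8, ranked 66 among those 153 hairpins, whose median was 20.5.

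**Figure D4:**
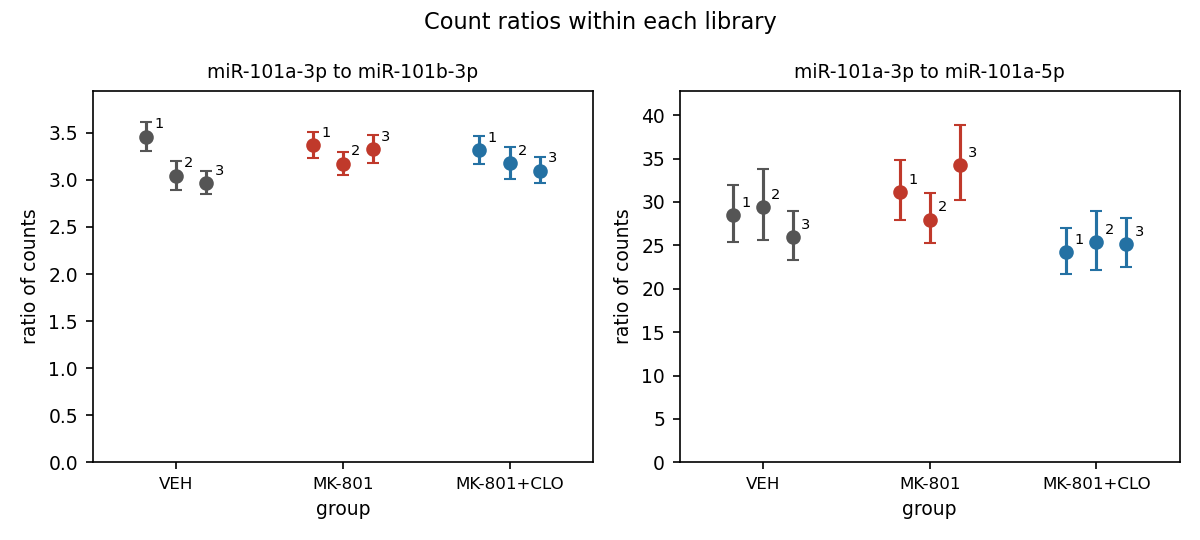
Ratio of counts within each library, on linear axes from 0, for miR-101a-3p to miR-101b-3p (left) and miR-101a-3p to miR-101a-5p (right). Each point is 1 library, numbered by replicate, and bars are 95% Wilson intervals. On the right the 3 MK-801+CLO libraries, at 24.2 to 25.3, lie below all others. Their intervals overlap those of every VEH library. That of MK-801 replicate 3, 30.2 to 38.8, lies above all 3, and that of MK-801 replicate 1 lies above that of MK-801+CLO replicate 1.

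Members varied together from library to library. Over the 9 libraries, log2 levels of miR-101a-3p correlated with those of miR-101b-3p at a Pearson r of 0.92 and with those of miR-101a-5p at 0.71, and miR-101a-5p with miR-101b-3p at 0.75. After each group's mean was removed the values were 0.74, 0.72 and 0.70. These describe libraries that share their scaling, and for the 3p arms possibly reads.

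Of 332 other miRNAs with a mean of at least 10 CPM, the 5 with profiles most like miR-101a-3p were miR-30e-5p (r = 0.96), miR-384-5p (0.92), miR-101b-3p (0.92), miR-29c-3p (0.80) and miR-142-5p (0.79), over 9 libraries. Their sequences are shown, with seeds in capitals, because the first pair shares a seed and because all have less G and C than the median tested miRNA.
miR-30e-5p: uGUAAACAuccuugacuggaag
miR-384-5p: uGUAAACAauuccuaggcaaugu
miR-29c-3p: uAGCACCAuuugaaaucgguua
miR-142-5p: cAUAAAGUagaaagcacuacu
None of these carries the miR-101 seed. MiR-30e-5p lay at 606 ± 18.9 scaled CPM in VEH, 723 ± 54.6 in MK-801 and 684 ± 37.4 in MK-801+CLO, the same order as both miR-101 3p arms. MiR-384-5p followed that order too, at 909.6 ± 52.8, 1074 ± 58.5 and 1019.8 ± 31.4. Both were picked by their likeness to miR-101a-3p over these same libraries, group differences included. The shared order largely follows from that choice and is no separate support. With each group's mean removed, r with miR-101a-3p was 0.88 for miR-30e-5p, 0.71 for miR-384-5p, 0.77 for miR-29c-3p and 0.37 for miR-142-5p.

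In base composition these miRNAs lay below the median to differing degrees, and 124 of 469 tested miRNAs were at or below miR-30e-5p. G and C made up 33.3% of miR-101a-3p, 38.1% of miR-101b-3p, 40.9% of miR-30e-5p, 34.8% of miR-384-5p, 36.4% of miR-29c-3p and 33.3% of miR-142-5p, against a median of 47.8% over the 469 tested miRNAs. MiR-101a-5p, at 45.5%, was near that median. The 78 tested miRNAs with no more G and C than miR-101b-3p had a median log2 fold change of 0.05 in MK-801 and 0.03 in MK-801+CLO relative to VEH, and -0.07 between the treated groups. The medians relative to VEH are below the values of both 3p arms, a difference that the choice of the family bears on. Both 3p arms are among the 78, since the limit was set at miR-101b-3p. MiR-30e-5p, the closest profile, lies above that limit but below the median of all tested miRNAs. The fold of miR-101b-3p in MK-801 relative to VEH was reached by 17 of the 78 (21.8%) and by 43 of all 469 (9.17%). In MK-801+CLO relative to VEH it was reached by 15 of the 78 (19.2%) and by 75 of all (16%). Between the treated groups 32 of the 78 (41%) and 253 of all (53.9%) reached it. The part of base composition in the miR-101 values was not tested. Over all 469 miRNAs, Spearman's rho between G and C content and fold was -0.19 for MK-801 and -0.06 for MK-801+CLO relative to VEH, and 0.11 between the treated groups, a description across miRNAs of shared libraries.

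**Figure D5:**
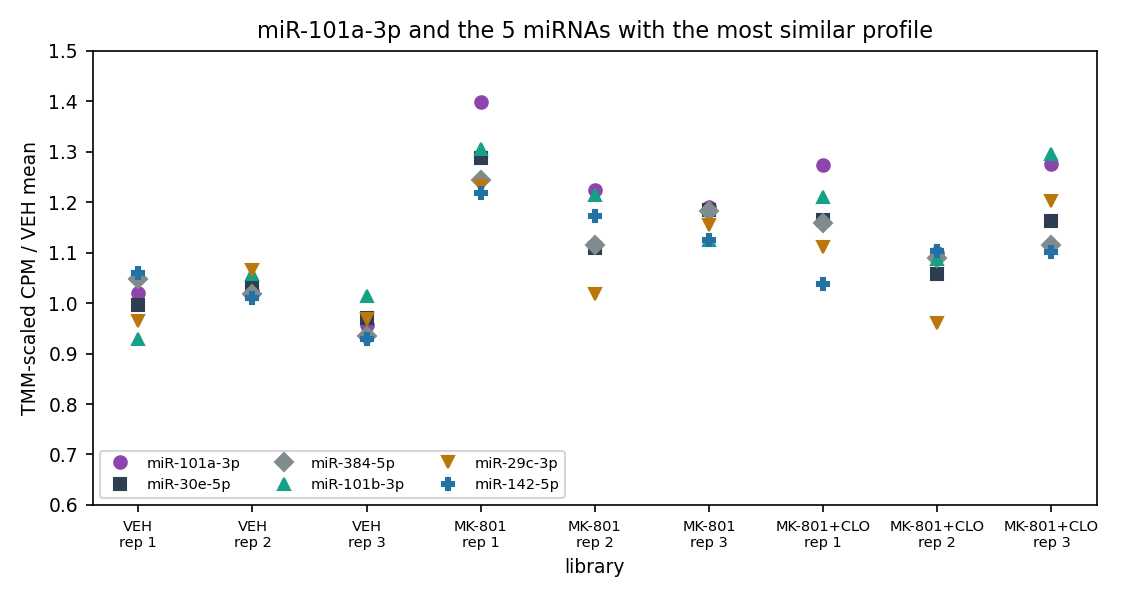
Scaled CPM of miR-101a-3p and the 5 miRNAs with the most similar profile in each of the 9 libraries, each divided by its VEH mean (linear axis that starts at 0.6). MK-801 replicate 1 is the highest library for all 6, and MK-801+CLO replicate 2 is the lowest treated library for all but miR-142-5p.

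A pair of other miRNAs shares only part of a seed with the family, shown with the shared bases 2 to 7 in capitals.
miR-144-3p: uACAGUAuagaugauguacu
miR-935: cCAGUUAccgcuuccgcuaccgc
MiR-144-3p, a miRNA of red blood cells, shares these bases with both miR-101 3p arms but was far less abundant, at 4.77 ± 1.43 scaled CPM in VEH, 4.26 ± 1.04 in MK-801 and 5.13 ± 0.653 in MK-801+CLO. MiR-935 shares them with miR-101a-5p and lay at 100.1 ± 22.4, 107 ± 17.7 and 88.7 ± 31.8. Their log2 fold changes for MK-801+CLO against VEH were 0.09 ± 0.26 (edgeR adjusted p = 0.881) for miR-144-3p and -0.18 ± 0.25 (edgeR adjusted p = 0.799) for miR-935.

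Other miRNAs reported to repress the same targets were compared as lists. The lists were chosen with earlier results of these data known, so counts within them are a description. Of 10 miRNAs reported to repress Ezh2, 8 were tested, and 0 passed in either direction in any comparison with edgeR. For MK-801 against VEH 3 lay higher and 5 lower, with a median of -0.05 against -0.02 for all miRNAs, of which 46.5% lay above 0. The abundant miR-26a-5p, at 87720.1 ± 4335 scaled CPM in VEH and 86738 ± 6104 in MK-801, was at -0.02 ± 0.09. MiR-138-5p was at 0.58 ± 0.18 and let-7a-5p at -0.18 ± 0.11. For MK-801+CLO against VEH 4 lay higher and 4 lower, with a median of -0.07 against 0.00 for all miRNAs, of which 50.1% lay above 0.

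Of 9 miRNAs reported to repress App, 8 were tested and 0 passed in edgeR in any comparison. Against VEH 6 of the 8 lay higher in MK-801, where 46.5% of all miRNAs did, with a median of 0.11 against -0.02 for all. In MK-801+CLO 6 lay higher than in VEH, where 50.1% of all did, with a median of 0.09 against 0.00 for all. MiR-153-3p, a neuronal miRNA, was at 0.25 ± 0.18 and 0.29 ± 0.18, and miR-384-5p at 0.24 ± 0.09 and 0.16 ± 0.09. MiR-16-5p was at 0.03 ± 0.12 and 0.24 ± 0.12. On the lower side, miR-195-5p was at -0.07 ± 0.11 and -0.04 ± 0.11. MiR-15a-5p was at -1.17 ± 0.53 in MK-801, the value farthest from 0 in the list there, and at -0.23 ± 0.50 in MK-801+CLO. Its mean level was under 1 scaled CPM in every group.

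All 10 miRNAs linked to excitability and seizures were tested, and 0 passed in edgeR in any comparison. For MK-801+CLO against VEH 6 lay higher and 4 lower, with a median of 0.16, where 50.1% of all miRNAs lay above 0. The largest value of the list was that of miR-34a-5p, 0.67 ± 0.29 (edgeR adjusted p = 0.311). MiR-132-3p, induced by neuronal activity, was at 0.42 ± 0.16 (edgeR adjusted p = 0.256), and miR-128-3p at 0.33 ± 0.14 (edgeR adjusted p = 0.288). MiR-134-5p, which limits dendritic spine size, was at -0.25 ± 0.15 (edgeR adjusted p = 0.458), and miR-218a-5p at -0.25 ± 0.13 (edgeR adjusted p = 0.390). In MK-801 relative to VEH 5 lay on either side, with a median of 0.01, where 46.5% of all miRNAs lay above 0. Between the treated groups 7 lay higher in MK-801+CLO, with a median of 0.17, where 48.8% of all miRNAs lay above 0.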

How the data were processed

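The authors deposited 1 table that holds raw counts for each mature miRNA in every library, beside columns headed TPM. Those deposited values equal each count scaled to its library total (largest relative difference 0.000473%), with no length term, and are treated as CPM. Build Rnor_6.0 and the tools cutadapt 1.14, DESeq and Bowtie appear, with no roles, in the submitters' processing notes. The handling of reads that match several miRNAs was not stated there. Per the labels' protocols, total RNA came from frozen hippocampus. The table held 21 blank lines and 1 split name, which was rejoined.

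EdgeR 4.0.16 in R 4.3.3 tested the counts: filterByExpr, TMM, quasi-likelihood fits with 1 mean per group over all 9 libraries, and Benjamini-Hochberg adjustment over 469 miRNAs at 0.05. Standard errors were the size of the log2 fold change over the root of F. The code was checked on simulated counts. Permutation tests and Wilson intervals used SciPy 1.17.1. Alternatives were DESeq2 1.42.0, limma 3.58.1 voom, other scalings and filters, merged 3p arms, a replicate block, fits to the 2 compared groups alone, and leaving out each library. Where arms of all hairpins were compared, 0.5 was added to counts.

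Named miRNAs were the family, the 5 nearest profiles by Pearson r of log2(scaled CPM + 1), sharers of bases 2 to 7, and 3 lists. The members and lists were chosen with earlier results of these data known. RefSeq names matched 571 of 633 miRNAs; seeds of the rest came from the deposited sequences.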

Additional observations from a re-analysis of the deposited data

How the results depend on the processing

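Over 20 alternatives each, the log2 fold changes against VEH of miR-101a-3p, miR-101b-3p and miR-101a-5p stayed above 0 in both comparisons, which the choice of the family bears on, and no member passed an adjusted p of 0.05 in either comparison of MK-801+CLO. The adjusted p for MK-801+CLO against VEH ran from 0.0570 to 0.643 for miR-101a-5p, 0.0630 to 0.643 for miR-101a-3p and 0.152 to 0.682 for miR-101b-3p. With 1 library left out, the change between MK-801+CLO and MK-801 ran from -0.110 to 0.0157 for miR-101a-3p and from -0.0849 to 0.0433 for miR-101b-3p; the cause was not tested. Upper-quartile scaling shifted the median of all miRNAs there to -0.12, and miR-101a-3p to -0.18. The number of miRNAs passing was 0 in edgeR in each comparison; in DESeq2 it was 1 (MK-801 over VEH), 2 (MK-801+CLO over MK-801) and 11 (MK-801+CLO over VEH). With 1 library left out it ran from 0 to 1, from 0 to 2 and from 0 to 7 in that order, the highest without MK-801 replicate 2, MK-801+CLO replicate 2 and MK-801+CLO replicate 2. The count of members above MK-801 without overlap in MK-801+CLO ran from 0 to 1 with 1 library left out, an alternative added after seeing the data. The share of all miRNAs was not computed with 1 library left out, so that count has no background to be read against. With the replicate block the log2 fold changes for MK-801+CLO against VEH were 0.45 (miR-101a-5p), 0.28 and 0.26, and no call changed. Replicate numbers did not pair the libraries: deviations of same-numbered libraries correlated at -0.324 to 0.138, over 0.1 in 1 of 9 pairs. Depth leaves miR-101b-5p, the member it limits most, at its floor, and gives miR-101a-5p the widest counting intervals of the tested members.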
